A study of Rattus norvegicus with 24 samples.

Results

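The expression of 6 nuclear genes that encode subunits of the mitochondrial respiratory chain was examined in whole hippocampus of selectively bred rats: Ndufa3, Ndufab1 and Ndufc2 of complex I, Uqcrc2 of complex III, and Cox6b1 and Cox7a1 of complex IV. They were taken by name from a set of 7 subunits, and 6 of the 7 were found among the 32883 genes of the count table through the study's chromosome 1 annotation. Uqcrfs1 had no entry in the part of that annotation available here and was not analysed. The rats came from generation F37 of lines bred for high (bHR, bred high responder) or low (bLR, bred low responder) locomotor activity in a new environment, each tested for locomotor activity and on an elevated plus maze and given no drug in the labels, and the F0 set held 24 rats, 6 in each subgroup of line and sex. In the labels, males were 151 to 165 days old and females 187 to 192 days old. The protocol text gives younger ages at sacrifice, and this difference was not resolved. The sexes were dissected on other days, so that sex, age and day of dissection cannot be told apart. A bHR female labelled as failing quality control for low RNA integrity was left out, leaving 6 bHR males, 5 bHR females, 6 bLR males and 6 bLR females. The family codes name 12 families with 1 male and 1 female each, while the protocol text speaks of 24 distinct families, so that rats with the same code may not be independent. Each rat is 1 sample, and p-values measure the spread between these rats.

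The respiratory chain passes electrons from NADH and succinate to oxygen and pumps protons across the inner mitochondrial membrane, and complex V uses that gradient to make ATP. Complex I takes electrons from NADH, complex III passes them from ubiquinol to cytochrome c, and complex IV (cytochrome c oxidase) hands them to oxygen. Most subunits are encoded in the nucleus and a minority in mitochondrial DNA, among them cytochrome b of complex III and the largest subunits of complex IV. In the hippocampus, as in brain generally, most ATP comes from this chain and much of it pays for ion pumping after synaptic activity.

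In the Rnor6 annotation, all 6 genes are protein coding and lie on chromosome 1, and counts were made over their exons. Ndufa3 (ENSRNOG00000060293), an accessory subunit of the membrane arm of complex I, lies at chr1:64172540-64175099 on the minus strand. Ndufab1 (ENSRNOG00000018129), which is both a complex I subunit and the mitochondrial acyl carrier protein, lies at chr1:192044216-192057612 on the minus strand. Ndufc2 (ENSRNOG00000012383), another accessory membrane-arm subunit, lies at chr1:162369801-162376023 on the plus strand. Uqcrc2 (ENSRNOG00000036742), core protein 2 of complex III, lies at chr1:190555177-190585734 on the plus strand. Cox6b1 (ENSRNOG00000024309), a complex IV subunit that faces the intermembrane space, lies at chr1:89075975-89084859 on the minus strand. Cox7a1 (ENSRNOG00000050015), the heart and skeletal muscle isoform of subunit VIIa of complex IV, lies at chr1:91071493-91074294 on the minus strand.

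Promoters of respiratory chain genes are known for short binding motifs of NRF-1, of ETS factors such as GABP, of YY1 and of ERR receptors. RefSeq promoters of the GRCr8 build, from 250 bases before to 50 bases after the start, had an entry for all 6 genes and were searched on both strands for the letters GCGCATGC (NRF-1), CCGGAAG (ETS), AAGATGG (YY1) and AAGGTCA (ERR). Of 33469 rat promoters, 2.47% held the NRF-1 letters, 8.75% the ETS letters, 7.01% the YY1 letters and 4.61% the ERR letters. Uqcrc2 held the ETS letters at -117 and -28 and the YY1 letters at -19 from the start, all as the reverse complement. Ndufa3 held the YY1 letters at 17 bases after the start and Cox6b1 held them, as the reverse complement, at -149. In each matched window the capitals mark the matched letters.
Uqcrc2, ETS, chr1:184599112-184599140, plus strand: actcatccggcCTTCCGGagcagtagagc
Uqcrc2, ETS, chr1:184599201-184599229, plus strand: ggaaacttggtCTTCCGGcaccatcttgc
Uqcrc2, YY1, chr1:184599210-184599238, plus strand: gtcttccggcaCCATCTTgctttgctgtc
Ndufa3, YY1, chr1:74515525-74515553, minus strand: tgtccaagaccAAGATGGctgctagtaag
Cox6b1, YY1, chr1:95009984-95010012, minus strand: ttccctgccctCCATCTTtctgtgttgag
The YY1 window of Uqcrc2 overlaps its ETS window at -28. No promoter of the 6 genes held the NRF-1 or ERR letters, and Ndufab1, Ndufc2 and Cox7a1 held none of the 4 in these 300-base promoters. A match is only a description of the letters.

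Library totals ran from 16824899 to 28443049 counts, with a median of 22044668. The gene with the highest count in a library took 1.12 to 5.21% of it. All 6 subunits passed the filter on low counts, which asked for a CPM (the count of a gene scaled to the size of its library) of at least 1 in at least 25% of the rats. They had between 2317 counts (Ndufa3) and 27685 counts (Ndufc2) in every library, except Cox7a1, which had 48 to 153 counts per library and so a larger counting error. Slc17a7, a marker of hippocampal glutamatergic neurons, was present with a mean of 502 CPM over the 23 rats, scaled by library size alone. Levels of the 6 subunits are given below in CPM after TMM normalization unless library size is named, which rescales each library so that most genes are centred between libraries. They are compared between rats for each gene, not between genes.

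The 5 subunits other than Uqcrc2 differed at least 2.02-fold between the highest and the lowest rat of every subgroup, and Uqcrc2 differed least, with 1.24-fold in bHR males. Ndufc2 had the widest spread, from 262 to 1463 CPM over the 23 rats. It had a lowest, median and highest level of 309, 727 and 1463 CPM in bHR males, 411, 757 and 1425 CPM in bLR males, and 262, 701 and 785 CPM in bLR females. The 5 bHR females had 274, 351, 781, 1188 and 1346 CPM. The 4 subgroups thus overlapped, with a bHR male highest and a bLR female lowest, but no bLR female was above 785 CPM.

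Uqcrc2 had the narrowest spread, from 404 to 952 CPM. It ran from 557 to 691 CPM with a median of 586 in bHR males, from 479 to 817 CPM with a median of 703 in bLR males, and from 404 to 711 CPM with a median of 665 in bLR females. The 5 bHR females had 470, 487, 658, 687 and 952 CPM. A bHR female was highest here, and again the subgroups overlapped.

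Cox7a1 was scarce in hippocampus. Its lowest, median and highest levels were 2.91, 4.99 and 7.86 CPM in bHR males, 2.76, 4.74 and 8.66 CPM in bLR males, and 1.74, 3.65 and 6.00 CPM in bLR females. The 5 bHR females had 2.10, 2.42, 4.51, 7.04 and 7.15 CPM. None of the 6 markers of skeletal and heart muscle fixed for the check had a mapped symbol, so those transcripts were not checked beside it.

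The other 3 subunits showed the same picture. Ndufa3 ran from 74.9 to 355 CPM in bHR rats (median 189) and from 91.4 to 327 CPM in bLR rats (median 176). Ndufab1 ran from 170 to 587 CPM in bHR rats (median 370) and from 178 to 673 CPM in bLR rats (median 359). Cox6b1 ran from 147 to 544 CPM in bHR rats (median 323) and from 172 to 493.3 CPM in bLR rats (median 304). In each of the 3 the lines overlapped.

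**Figure D1:**
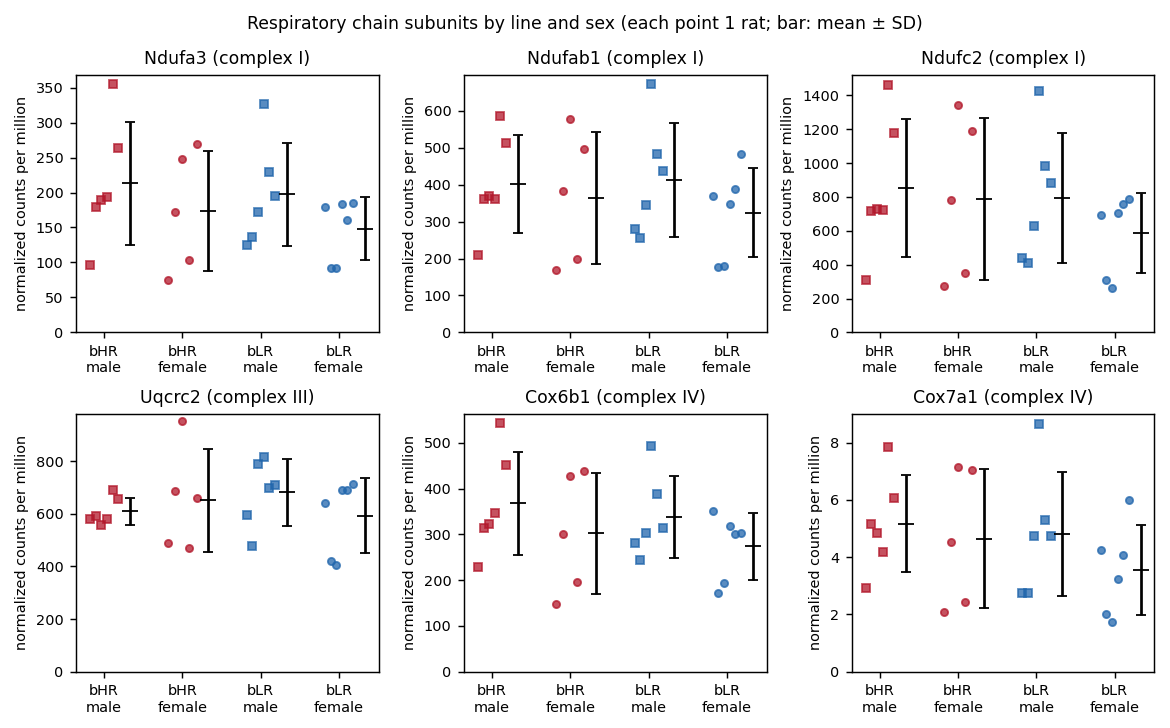
Normalized level of each of the 6 subunits (y axis, CPM, from 0) in each rat, by line and sex (x axis). Squares are males, circles are females, red is bHR and blue is bLR, and the black bar gives the mean ± SD of the subgroup. The subgroups overlap in all 6 genes, and Uqcrc2 has the least spread relative to its level (coefficient of variation 20.6%, against 31.8 to 49.1% in the others, or 10.9% against 15.8 to 32% by library size alone).

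The line comparison asks whether selective breeding for high or low locomotor activity went with other levels of these subunits. None of the 6 differed between bLR and bHR rats in the edgeR quasi-likelihood test with lineage, sex, percent ribosomal RNA (%rRNA) and percent intergenic RNA (%intergenic) as terms (Benjamini-Hochberg FDR < 0.10 over all 13838 genes tested). Over all genes the same test called 185, or 1.34%. Bulk tissue cannot tell fewer cells of a type from less RNA per cell.

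For the complex I subunits the line differences were close to 0 in the main model. Ndufa3 had 195 ± 84.7 CPM in bHR rats (SD, n = 11) and 173 ± 63.7 CPM in bLR rats (n = 12), and a Log2FC for bLR vs. bHR of 0.0078 ± 0.117 (SE, edgeR FDR = 0.992). Ndufab1 had 385 ± 148 CPM against 368 ± 141 CPM and a Log2FC of 0.028 ± 0.102 (edgeR FDR = 0.963). Ndufc2 had 824 ± 419 CPM against 690 ± 324 CPM and a Log2FC of -0.048 ± 0.130 (edgeR FDR = 0.946). The adjusted differences of these 3 genes were smaller than their standard errors, and that of Ndufa3 turned to -0.0064 with DESeq2's size factors. They were larger without %intergenic in the model. With sex as the only covariate Ndufc2 had -0.26 and Ndufa3 -0.16, and with sex and %rRNA they had -0.33 and -0.22. None of these passed. With sex and RNA concentration Ndufa3 had -0.34 and did not pass (edgeR unadjusted p = 0.0314, FDR = 0.123). Ndufc2 had -0.51 there and passed (edgeR FDR = 0.080), in a fit where 18.9% of all genes passed.

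Uqcrc2 had 628 ± 130 CPM in bHR rats and 637 ± 136 CPM in bLR rats, and a Log2FC of 0.039 ± 0.0923 (edgeR FDR = 0.935). Cox6b1 had 338 ± 120 CPM against 306 ± 85.0 CPM and a Log2FC of -0.028 ± 0.116 (edgeR FDR = 0.967). Cox7a1 had the largest difference of the 6, with 4.93 ± 1.96 CPM in bHR rats and 4.19 ± 1.93 CPM in bLR rats. Its Log2FC was -0.20, with a 95% confidence interval of -0.47 to 0.082 (edgeR FDR = 0.682). The interval therefore runs from a fold of 0.720 to a fold of 1.06, and 76.5% of all genes had a smaller fitted difference. With sex and %rRNA as covariates Cox7a1 had -0.36 (edgeR unadjusted p = 0.0351, FDR = 0.271). With all 24 rats it had -0.24 (edgeR FDR = 0.481), and with RNA integrity (RIN) added to the main model -0.12 (edgeR FDR = 0.828). For the other 5 the intervals of the main model ran from no lower than -0.32 to no higher than 0.25 on the log2 scale. These bounds are not a limit of detection. In simulated counts with the same model, 12.4% of genes changed by 0.5 on the log2 scale between the lines were called. Of those changed by 1, 88.4% were called.

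Within each sex, with lineage and %rRNA as terms, again 0 of the 6 passed, where the same fits called 0.131% of genes in males and 0.0569% in females. Cox7a1 had a Log2FC of -0.27 in males (95% confidence interval -0.78 to 0.24) and -0.46 in females (-0.94 to 0.029). The line difference depended on which RNA metric was in the model. RIN was lower in bLR than in bHR rats (mean 9.32 ± 0.365 against 9.59 ± 0.164, permutation p = 0.042 unadjusted over the 4 metrics), and %intergenic was 10.7 ± 1.09 against 9.83 ± 1.35 (permutation p = 0.12). With sex and log2 RNA concentration as the only covariates, Ndufc2 had a Log2FC of -0.51 (edgeR FDR = 0.080) and Cox7a1 of -0.50 (edgeR FDR = 0.0519), so that 2 of the 6 passed, but 18.9% of all genes passed in that fit. The part of RNA quality in this was not tested.

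None of the 6 differed between the sexes in the edgeR fit, where 0.354% of genes did. The fitted values were below 0 for each gene, with Ndufa3 lowest at -0.19 ± 0.113 for female vs. male (edgeR FDR = 0.516) and Cox6b1 next at -0.19 ± 0.112 (edgeR FDR = 0.537). The direction for Uqcrc2, at -0.0016 ± 0.0897, turned under several alternatives including other scalings. The sex calls over all genes split into 12 higher and 37 lower in females, into 14 and 22 with DESeq2's size factors in edgeR, and into 7 and 14 with library size alone. DESeq2 itself gave 74 higher and 83 lower. Without bLR male replicate 2 the split turned, to 32 higher and 18 lower.

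The interaction of lineage and sex, fitted with %rRNA, called 0 of the 6 and 0% of all 13838 genes in edgeR. Over all genes 325 had an unadjusted p under 0.05, fewer than the 5% that chance alone gives. DESeq2 was not run for it, and limma-voom also called 0. The interaction value was smallest in size for Ndufa3 at 0.036 ± 0.348 and largest for Uqcrc2 at -0.24 ± 0.208. The intervals were wide, and that of Ndufc2 ran from -0.94 to 0.80 on the log2 scale.

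All 6 subunits rose with %rRNA, the labelled share of ribosomal RNA in a library, which ran from 1.23 to 3.98% over the 23 rats. In edgeR 6 of 6 passed with a positive slope, where 36.2% of all genes did. The median slope of the 6 was 0.56 on the log2 scale per 1 point of %rRNA, beside -0.018 over all genes tested. The order from steepest to flattest was Ndufc2, Cox7a1, Ndufab1, Ndufa3, Cox6b1 and Uqcrc2.

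Ndufc2 rose by 0.73 ± 0.0862 (SE) per point, a fold of 1.66 (edgeR FDR = 9.52e-08), and 94.6% of all genes had a lower slope. Cox7a1 rose by 0.65 ± 0.0866 (FDR = 4.77e-07 in edgeR). Ndufab1 rose by 0.60 ± 0.0666 (FDR = 4.3e-08 in edgeR) and Ndufa3 by 0.52 ± 0.0763 (FDR = 1.92e-06). The intervals of these 4 slopes overlapped, from 0.36 to 0.91. Cox6b1 rose by 0.41 ± 0.0766 (FDR = 4.01e-05 in edgeR). Uqcrc2 rose least, by 0.29 ± 0.0603, a fold of 1.22 (FDR = 0.000173 in edgeR), and its interval, 0.16 to 0.41, did not overlap those of Ndufab1, Ndufc2 or Cox7a1.

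The slopes held within each line. In bHR rats alone they ran from 0.40 (Uqcrc2) to 0.76 (Ndufc2) and 6 of 6 passed, where 29.3% of genes rose. In bLR rats alone they ran from 0.30 (Uqcrc2) to 0.75 (Ndufc2) and 6 of 6 passed, where 33.6% of genes rose. With log2 RNA concentration added to the model the slopes were 0.18 (Uqcrc2, FDR = 0.145 in edgeR) to 0.51 (Ndufc2, FDR = 0.00552), and 5 of 6 passed, where 18.6% of genes did.

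How far the subunits rose depended on how libraries were scaled. The TMM factors ran from 0.689 to 1.34 and fell with %rRNA (Pearson r of their log2 values = -0.853 over the 23 rats, subgroup means subtracted). Scaled by library size alone, the median slope of all genes moved by -0.304 to -0.321, and the calls over all genes moved from 5010 rising and 5564 falling to 2140 rising and 8960 falling. On that scale 5 of 6 subunits still rose, where 15.5% of genes did, and Uqcrc2 had a slope of -0.014 (FDR = 0.806 in edgeR).

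Another scaling moves the slopes of all genes by about the same amount, so that the distance of a gene from the median of all genes stays nearly fixed by construction. With TMM, Ndufc2 stood 0.747 above that median, Uqcrc2 0.304 and the median of the 6 subunits 0.578. By library size alone Uqcrc2 ran from 517 to 804 CPM, a 1.55-fold range, while Ndufc2 ran from 351 to 1100 CPM, a 3.12-fold range. That Uqcrc2 rose with %rRNA therefore holds relative to the other genes and not as a share of all counts.

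**Figure D2:**
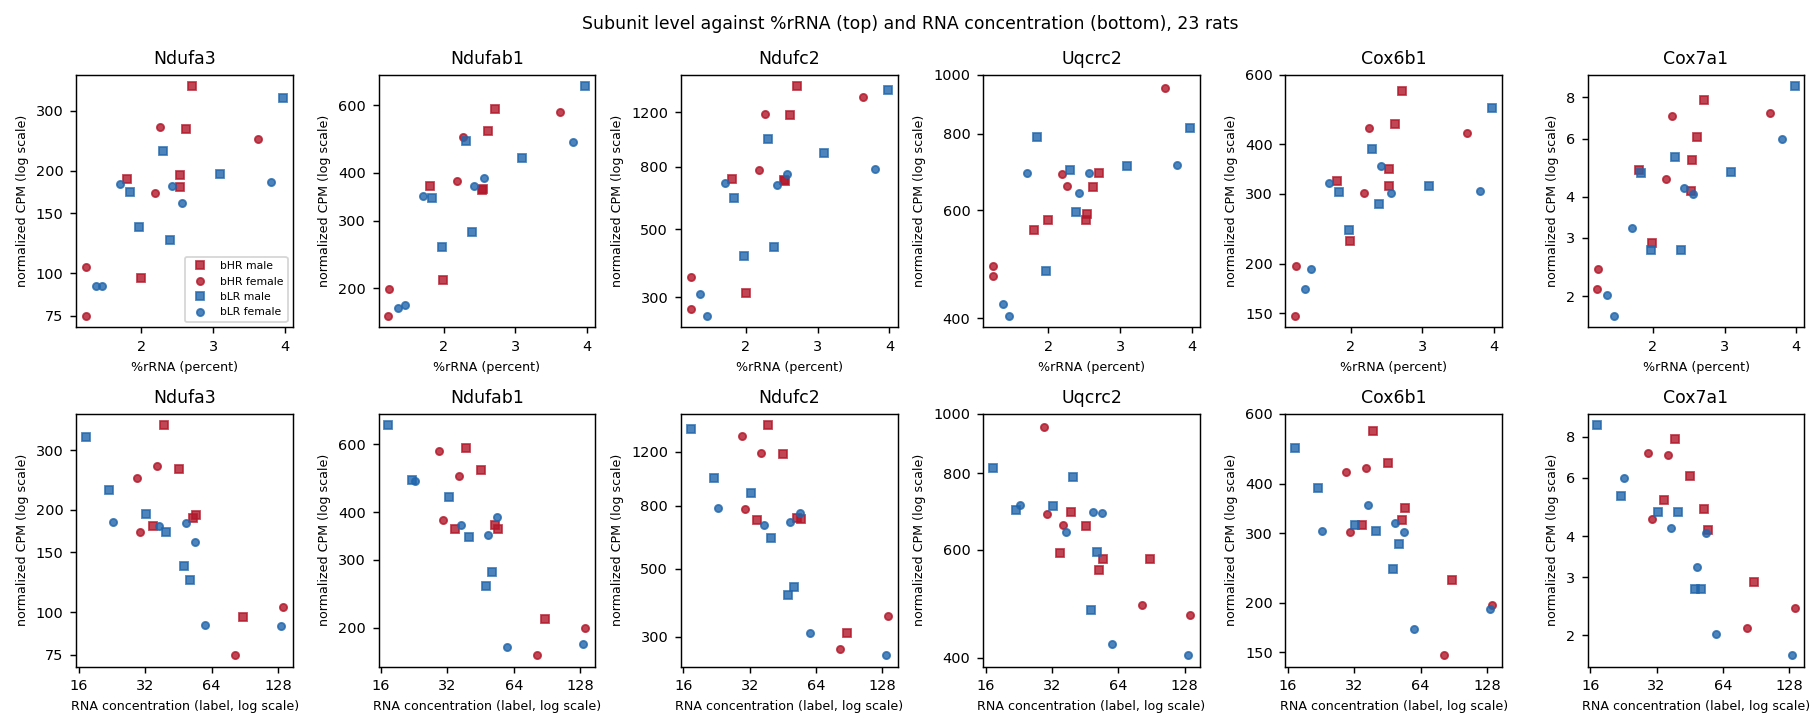
Normalized level of each subunit (y axis, CPM on a log scale) against %rRNA (top row, x axis in percent) and the labelled RNA concentration (bottom row, x axis on a log scale) in 23 rats. Each point is 1 rat, squares are males, circles are females, red is bHR and blue is bLR. All 6 genes are higher in rats with more %rRNA and lower in rats with more RNA, in both lines.

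Rat by rat, with subgroup means subtracted, the level of each subunit on the log2 scale correlated with %rRNA. Pearson's r ran from 0.705 (Ndufa3, Spearman's rho = 0.75) to 0.816 (Ndufab1, rho = 0.837) over 23 rats. The two-sided permutation p-values ran from 3e-05 to 0.00072, and from 0.00012 to 0.0014 after adjustment over the 24 relations computed (6 genes with 4 RNA metrics), and those of rho from 0.00012 to 0.001 after adjustment. Without the 2 rats farthest from the median of %rRNA, r ran from 0.677 (Uqcrc2) to 0.794 (Ndufab1). Within the lines r ran from 0.744 to 0.958 in bHR rats and from 0.626 to 0.829 in bLR rats. For Uqcrc2 the value depended on the scaling, with r = -0.0628 (permutation p = 0.79) by library size alone, and for Cox6b1 it was 0.412 (permutation p = 0.095) on that scale.

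All 6 subunits fell with the RNA concentration of the extract, which ran from 17.3 to 135 in the labels (unit not given). In edgeR, with lineage and sex as covariates, 6 of 6 passed with a negative slope, where 34.2% of all genes did. Ndufc2 fell by 0.88 ± 0.130 (SE) on the log2 scale per doubling (FDR = 6.73e-06 in edgeR), a fold of 0.545. Cox7a1 fell by 0.76 ± 0.10 (FDR = 3.86e-06 in edgeR), Ndufab1 by 0.68 ± 0.0940 and Ndufa3 by 0.62 ± 0.109. Cox6b1 fell by 0.47 ± 0.0958 (FDR = 0.00016 in edgeR) and Uqcrc2 by 0.33 ± 0.0707 (FDR = 0.000258 in edgeR), the least of the 6. The order was the same as for %rRNA.

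The 5 rats with the most concentrated RNA (59.8 to 135) were also the 5 lowest of the 23 in Ndufc2, Ndufa3, Ndufab1 and Cox6b1, and 4 of them were among the 5 lowest in Cox7a1 and in Uqcrc2. They were 2 bHR females, 2 bLR females and 1 bHR male. Over all 23 rats Pearson's r with log2 concentration ran from -0.767 (Uqcrc2 and Cox6b1) to -0.885 (Cox7a1), and Spearman's rho from -0.73 (Uqcrc2) to -0.878 (Cox7a1). The adjusted permutation p-values ran from 0.00012 to 0.00074 for r and from 8e-05 to 0.001 for rho. Without the 2 rats farthest from the median concentration r ran from -0.671 (Uqcrc2) to -0.88 (Cox7a1).

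Scaling by library size alone moved the concentration slope of all genes by 0.316 and that of Uqcrc2 to -0.0081 (FDR = 0.90 in edgeR). The other 5 still fell, where 17.3% of genes did, and over all genes the calls moved from 5516 rising and 4739 falling to 8617 and 2390. %rRNA and log2 concentration were themselves correlated (r = -0.772, subgroup means subtracted). With %rRNA and %intergenic added to the concentration model, 0 of 6 passed and 0% of all genes fell. In that edgeR fit Cox7a1 had -0.38 ± 0.147 per doubling (unadjusted p = 0.0152) and Ndufc2 -0.31 ± 0.146 (unadjusted p = 0.0438).

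%intergenic, the labelled share of sequence outside annotated genes, ran from 8.74 to 13.5%. All 6 subunits fell with it in the main edgeR model, where 33.4% of all genes did. Without %rRNA in the model 4 of the 6 fell, and Cox7a1 (FDR = 0.113 in edgeR) and Uqcrc2 (FDR = 0.175) did not pass. Ndufc2 fell by 0.34 ± 0.0539 (SE) per point on the log2 scale (FDR = 1.74e-05 in edgeR) and Ndufa3 by 0.27 ± 0.0479 (FDR = 5.57e-05). Uqcrc2 fell by only 0.079 ± 0.0364 (FDR = 0.0605 in edgeR). That call was lost without bLR male replicate 3 (FDR = 0.143), bLR female replicate 4 (0.107), bLR female replicate 6 (0.119) or bHR female replicate 4 (0.103), and without the filter on low counts (FDR = 0.198). By library size alone 5 of 6 fell, where 21.7% of genes did, Uqcrc2 had a slope of 0.0029, and the split of calls over all genes moved from 4902 rising and 4615 falling to 6611 and 3001.

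RIN, the RNA integrity number, ran from 8.7 to 9.8 in these rats. The subunits correlated with it less than with %rRNA or concentration, with r from 0.503 (Cox6b1) to 0.621 (Ndufc2), rho from 0.469 (Uqcrc2) to 0.575 (Ndufc2), and adjusted permutation p-values from 0.0014 to 0.015 for r and from 0.0053 to 0.042 for rho. Without the 2 rats farthest from the median RIN, r ran from 0.412 (Uqcrc2) to 0.569 (Ndufc2). When the bHR female left out for low RIN was included, the 6 values of r lay between 0.094 and 0.32 and none passed (adjusted permutation p 0.32 to 0.81), so that the relation with RIN depended on that rat. By library size alone r of Uqcrc2 with RIN was 0.043 (adjusted permutation p = 0.92). With %intergenic r ran from -0.609 (Ndufa3) to -0.334 (Uqcrc2, adjusted permutation p = 0.064), with rho from -0.537 (Ndufa3) to -0.342 (Cox7a1, adjusted permutation p = 0.11), and without the 2 farthest rats r ran from -0.446 (Ndufa3) to -0.239 (Cox7a1). Ndufab1 (r = -0.372, adjusted permutation p = 0.11) and Cox7a1 (r = -0.327, adjusted permutation p = 0.17) did not pass without bHR male replicate 1, and Uqcrc2 did not pass without bHR female replicate 1 (r = -0.289, adjusted permutation p = 0.12) or replicate 4 (r = -0.307, adjusted permutation p = 0.13). With all 24 rats Ndufa3 and Ndufc2 still passed, and the other 4 did not (r = -0.384 to -0.265, adjusted permutation p 0.17 to 0.32).

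The subunits moved together from rat to rat. With subgroup means subtracted, the 10 pairs among Ndufa3, Ndufab1, Ndufc2, Cox6b1 and Cox7a1 had Pearson's r from 0.923 (Cox6b1 with Cox7a1) to 0.989 (Ndufab1 with Ndufc2) over 23 rats. The 5 pairs with Uqcrc2 had r from 0.782 (with Ndufa3) to 0.863 (with Ndufab1). All 15 pairs passed the two-sided permutation test within subgroups, with adjusted p from 1.2e-05 to 4e-05, and the smallest unadjusted p, 1e-05, is the smallest that 100000 permutations can give. Spearman's rho ran from 0.77 (Uqcrc2 with Cox6b1) to 0.981 (Ndufab1 with Ndufc2), with adjusted permutation p from 1.4e-05 to 0.00013. Without the 2 rats farthest from the median of the first gene of a pair, r ran from 0.803 to 0.988. Within single subgroups of 5 or 6 rats the lowest r of a pair was 0.743 (Ndufa3 with Uqcrc2 in bLR males).

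Such values were common in these libraries. With Ndufc2, 16.8% of the other 13832 genes tested had r over 0.9, and with Cox7a1 12.6% did, while with Uqcrc2 it was 2.26%. The first principal component held 64.5% of the variance of all genes after subtraction of subgroup means, and it had r = 0.991 with Ndufab1, 0.98 with Ndufc2, 0.88 with Uqcrc2 and 0.839 with %rRNA. The median r of a subunit with the other members of the set was exceeded by 2.34% of all genes for Cox6b1, 3.24% for Ndufa3 and 9.51% for Uqcrc2.

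After lineage, sex, %rRNA and %intergenic were removed by the main model, the co-variation of 5 subunits remained and that of Uqcrc2 was much lower. Their 10 residual r values ran from 0.712 (Cox6b1 with Cox7a1, adjusted permutation p = 0.0016) to 0.971 (Ndufab1 with Ndufc2). Ndufa3 and Cox6b1, which belong to different complexes, had a residual r of 0.952. Residuals of Uqcrc2 had r of 0.254 with Ndufa3 (adjusted permutation p = 0.18), 0.359 with Cox6b1 (0.089) and 0.455 to 0.488 with the other 3. Over all genes, 2.2% had a residual r over 0.9 with Ndufa3, 1.16% with Cox6b1, 4.97% with Ndufc2 and 0.152% with Uqcrc2. By library size alone, without the model, the 10 pairs without Uqcrc2 kept r from 0.694 (Cox6b1 with Cox7a1) to 0.974, and the 5 pairs with Uqcrc2 had r from -0.226 to -0.0057 (permutation p 0.3 to 0.98).

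**Figure D3:**
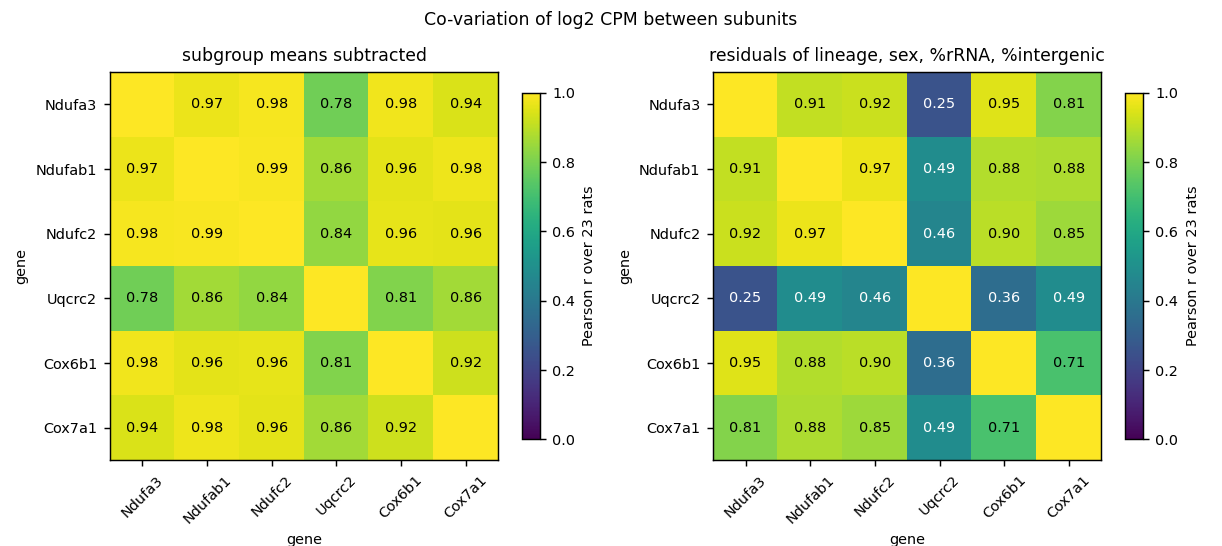
Pearson's r over 23 rats (colour and printed value) between the log2 CPM of each pair of subunits, with subgroup means subtracted (left) and as residuals of lineage, sex, %rRNA and %intergenic (right). Both axes list the 6 genes. The row of Uqcrc2 falls to between 0.25 and 0.49 on the right, while the other pairs stay at 0.71 or above.

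A ratio of counts between genes of the same library needs no scaling. It was added after the data had been seen, with Uqcrc2, whose slope was seen to be the flattest, as denominator, so that the ratios restate the differences between slopes above on a scale-free measure and are no independent evidence of them. The log2 ratio of Ndufc2 to Uqcrc2 rose with %rRNA (r = 0.648, rho = 0.737, adjusted permutation p = 0.0011 and 0.00042 over 10 relations, 23 rats, subgroup means subtracted) by 0.46 per point. The ratio of Cox7a1 to Uqcrc2 rose by 0.372 per point (r = 0.712, adjusted permutation p = 0.0012), that of Ndufab1 by 0.323 (r = 0.694, adjusted permutation p = 0.00055) and that of Ndufa3 by 0.239 (r = 0.463, adjusted permutation p = 0.024). The ratio of Cox6b1 to Uqcrc2 did not pass (r = 0.355, adjusted permutation p = 0.12). Against RNA concentration the same 4 ratios fell, with r from -0.601 (Ndufa3) to -0.814 (Cox7a1) and adjusted permutation p from 0.0002 to 0.0023, and that of Cox6b1 to Uqcrc2 also passed at FDR < 0.10 (r = -0.439, adjusted permutation p = 0.061). Spearman's rho of the same 4 ratios ran from 0.562 to 0.758 with %rRNA (adjusted permutation p 0.00042 to 0.0095) and from -0.724 to -0.858 with concentration (adjusted permutation p 0.0001 to 0.00063), and that of Cox6b1 was 0.331 (adjusted permutation p = 0.14) and -0.415 (adjusted permutation p = 0.075). Without the 2 rats farthest from the median, r of the 4 passing ratios with %rRNA ran from 0.56 to 0.713 and with concentration from -0.688 to -0.851, and that of Cox6b1 was 0.513 and -0.564.

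The genes most like each subunit were sought among the 1827 other tested genes with a symbol, by Pearson's r over the 23 rats. Ndufa3 was most like Uqcc3 (r = 0.991), an assembly factor of complex III, then Btf3 (0.991) and Gtf2h5 (0.99). Ndufab1 was most like Sf3b5, Pdcd2 and Nudt8 (each 0.994). Ndufc2 was most like Mrpl46 (0.997), a mitochondrial ribosomal protein, Pex2 (0.997), a peroxisome biogenesis factor, and Mpc1 (0.997), a subunit of the mitochondrial pyruvate carrier. Cox6b1 was most like Tmem147 (0.978), Ypel3 (0.978) and Fabp5 (0.974). Cox7a1 was most like Aamdc (0.98), Atp5mk (0.98), a small subunit of complex V, and Tbca (0.978). Uqcrc2 was most like Fv1 (0.964), Tubgcp5 (0.95) and Ltv1 (0.945). No gene was named for more than 1 of the 6 subunits.

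Of 84 nuclear subunits of complexes I to V in a fixed list, 16 had a mapped symbol and 10 of these were not among the 6. None of the 10 differed between the lines in edgeR, with a median Log2FC of 0.014, beside -0.0099 for the 6 and -0.0035 over all genes. With %rRNA, 9 of the 10 rose and 1 fell, with a median slope of 0.41, where 36.2% of all genes rose and 76.4% were called in either direction. The one that fell was Sdha, the flavoprotein subunit of complex II, the only member of that complex with a symbol here, with -0.20 ± 0.0499 per point (FDR = 0.000832 in edgeR). Its r with the 6 subunits ran from -0.913 to -0.628. Since library size alone moves the median slope by -0.304, slopes under that size (Ndufv1, Cox6b2 and Cox8a among the 10) are rises relative to other genes, not as a share of all counts.

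In complex I the other mapped subunits were Ndufb8 at 0.90 ± 0.0891 per point of %rRNA, Ndufs4 at 0.46 ± 0.0645, Ndufs8 at 0.36 ± 0.0521 and Ndufv1 at 0.30 ± 0.0541. Ndufb8 lies in the membrane arm and the other 3 in the peripheral arm that binds NADH. In complex IV, Cox7c rose by 0.80 ± 0.0995 per point. Cox8a, the isoform of subunit VIII used in most tissues, rose by 0.15 ± 0.0570, and Cox8b, its heart and muscle isoform, by 1.10 ± 0.470 (FDR = 0.0393 in edgeR). Cox6b2, the testis isoform of the subunit that Cox6b1 encodes, rose by 0.28 ± 0.104 at a mean of only 2.48 CPM scaled by library size alone. In complex V, Atp5mk rose by 1.12 ± 0.109.

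Among 6 mapped assembly factors and regulators, 4 rose with %rRNA and 2 fell, and with 76.4% of all genes called (5010 rising, 5564 falling) such a mixed split does not set this list apart. Ndufaf2, a complex I assembly factor, rose by 0.74 ± 0.0798 and Uqcc3 by 0.62 ± 0.0915 per point. Esrra, which encodes the receptor ERR alpha, rose by 0.26 ± 0.0571. That is less than the 0.304 by which library size alone lowers the median slope, so its rise is relative to other genes. Ucp2, an uncoupling protein of the inner membrane, fell by 1.29 ± 0.137, and Cox15, which makes haem A for complex IV, by 0.15 ± 0.0743 (FDR = 0.0782 in edgeR). None of the 6 passed for lineage. Ucp2 had a Log2FC for bLR vs. bHR of -0.59 (unadjusted p = 0.00552, edgeR FDR = 0.215) and Cox15 of -0.35 (unadjusted p = 0.00467, edgeR FDR = 0.199). No gene of mitochondrial DNA had a mapped symbol, so the subunits encoded there were not analysed here.

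For comparison, all 13 mapped cytosolic ribosomal protein genes rose with %rRNA, with slopes from 0.55 to 1.24 and a median of 0.90 per point, beside 0.56 for the 6 subunits, where 36.2% of all genes rose. Their r with the subunits ran from 0.797 to 0.988. None of the 13 differed between the lines, with a median Log2FC of 0.072. With RNA concentration all 13 fell, with a median of -1.04 per doubling, beside -0.65 for the 6, where 34.2% of all genes fell.

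**Figure D4:**
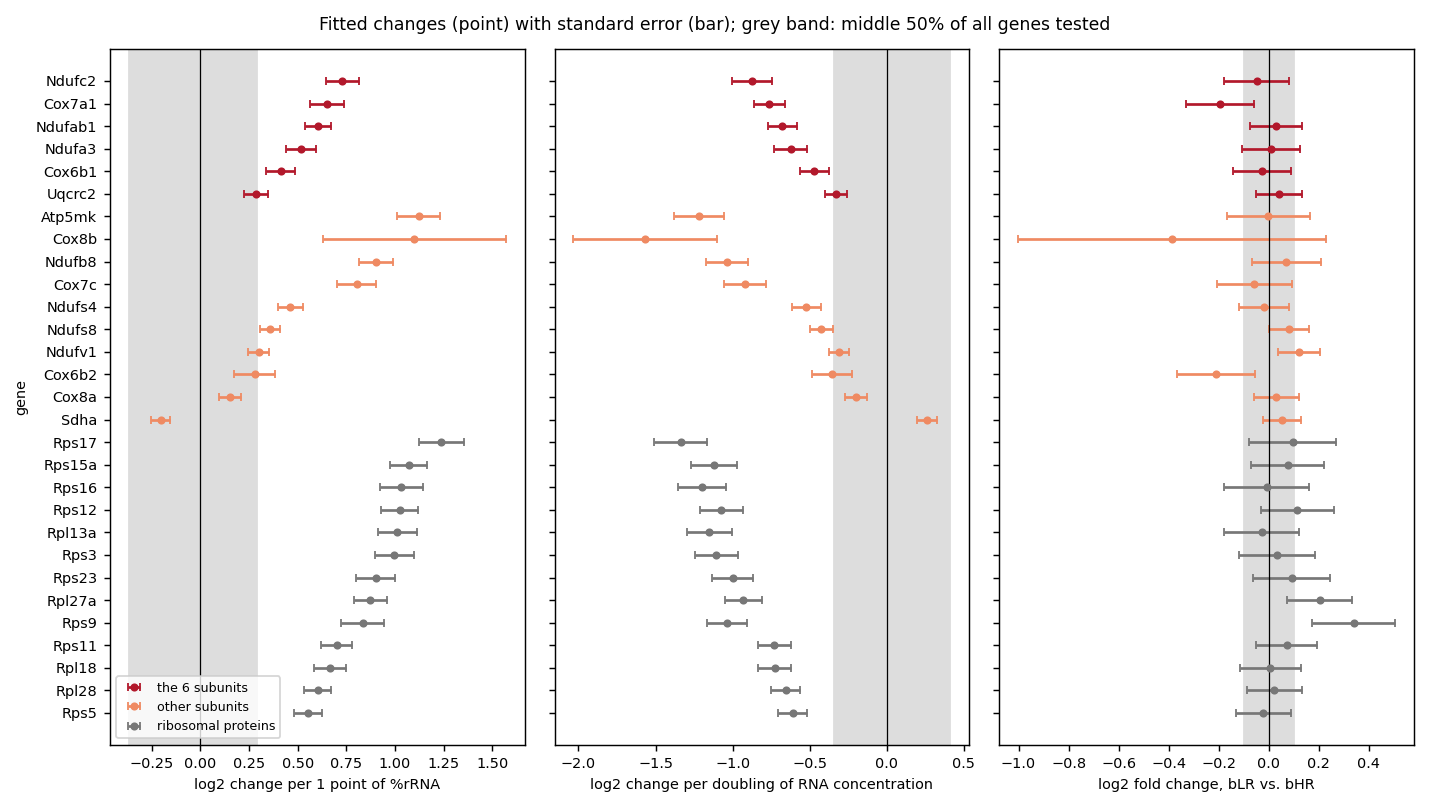
Fitted change with its standard error for the 6 subunits (red), 10 other mapped subunits of complexes I to V (orange) and 13 cytosolic ribosomal protein genes (grey): log2 change per point of %rRNA (left), per doubling of RNA concentration (middle) and Log2FC for bLR vs. bHR (right). The grey band is the middle 50% of all genes tested. The subunits lie above 0 on the left and below 0 in the middle except Sdha, and none of the genes shown passes the test on the right.

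Of the markers of other cell types fixed for the check, 1 each had a symbol for 6 types and none for microglia, endothelial cells or muscle. Slc17a7 fell by 0.81 ± 0.0990 per point of %rRNA and Mag, of oligodendrocytes, by 0.51 ± 0.0883, and their r with the subunits ran from -0.953 to -0.858. Slc1a3, of astrocytes, rose by 0.33 ± 0.0782 and had r of 0.0932 to 0.511 with them. Acta2, of smooth muscle, fell by 0.82 ± 0.178 and had r of -0.782 to -0.605. Hbb, of red blood cells, rose by 1.17 ± 0.228 and had r of 0.694 to 0.878 with the subunits, at a mean of 866 CPM scaled by library size alone, and it was lower in females than in males by a Log2FC of -2.02 ± 0.336 (FDR = 0.00273 in edgeR). Folr1, of choroid plexus, had a slope of 0.37 ± 0.432 (FDR = 0.452 in edgeR) and r of 0.214 to 0.477. Their part in the relation of the subunits to %rRNA was not tested.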

How the data were processed

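Poly-A RNA of whole hippocampus was sequenced from 24 rats. Rnor6 was the genome to which the authors aligned paired reads (STAR 2.7.3a), and uniquely placed reads were assigned to Ensembl genes with their strand (Subread 2.0.0). The authors deposited these counts without normalization or filter. Rats were grouped by the labels for line and sex, and RIN, RNA concentration, %rRNA, %intergenic and family also came from the labels. Because only uniquely placed reads were counted, genes with close copies (ribosomal proteins, Btf3, Cox7c) are uncertain.

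Counts were tested with edgeR 4.0.16 in R 4.3.3 (TMM, quasi-likelihood, Benjamini-Hochberg, FDR < 0.10) after the filter of 1 CPM in 25% of rats (6 of 23), with bHR and male as reference. The main terms were lineage, sex, %rRNA and %intergenic. RNA concentration was tested with lineage and sex, and the interaction with %rRNA. Correlations used log2 CPM (prior count 2) and 100000 permutations within subgroups. The 48 to 153 counts of Cox7a1 per library limit its precision. Every pair of rats within a subgroup was compared, and even the most alike pair differed by 14.7 times the counting noise (chi-square over its degrees of freedom), so no library was counted as a duplicate. Alternatives were limma-voom 3.58.1, DESeq2 1.42.0, other scalings, filters and covariates, all 24 rats, each rat left out, and family as a block. Family codes put 1 male and 1 female of the same line together: deviations of the 11 pairs with a shared code correlated at -0.725 to 0.78 (median 0.147), with 6 pairs above 0.1. Scripts were tested on simulated counts.

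Named genes were the 6 subunits, the 3 genes with a symbol most like each, list genes by complex (at most 4 each), and the fixed lists of assembly factors, ribosomal proteins and markers. The subunits and lists were chosen with earlier results of these data known. Symbols came from the part of the study's annotation tables that was available here, which gave 1838 genes of the count table a symbol. The full annotation covers more genes. List counts cover only these 1838, and a gene without a symbol here may have one in the study.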

Additional observations from a re-analysis of the deposited data

How the results depend on the processing

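No subunit differed between the lines under any alternative run except with sex and RNA concentration as covariates, where 2 passed, and none differed by sex or in the interaction under any run. Directions near 0 turned. For lineage, Ndufa3 was -0.0064 with RLE size factors and with DESeq2, -0.054 with all 24 rats, -0.16 with sex as the only covariate, -0.22 with sex and %rRNA, -0.34 with sex and RNA concentration, -0.25 in males and -0.22 in females. In the same order from sex alone, Ndufab1 was -0.060, -0.15, -0.27, -0.11 and -0.19. Uqcrc2 was -0.018 with sex and %rRNA, -0.086 with sex and concentration and -0.16 in females. With RIN added Ndufc2 was 0.042 and Cox6b1 0.0065. For sex, Uqcrc2 was 0.0046 with limma-voom, 0.028 with RLE and with DESeq2, 0.052 with library size alone, 0.015 without the filter and 0.014 with family as replicate block. For the interaction, Ndufa3 was -0.021 with RLE, Ndufab1 0.021 with library size alone, 0.023 with all 24 rats and 0.095 with %intergenic added, Ndufc2 0.058 and 0.14 with the last 2, and Cox7a1 0.017 with %intergenic. With library size alone, Uqcrc2 had slopes of -0.014 (%rRNA) and 0.0029 (%intergenic), r of -0.0628 with %rRNA, 0.0041 with concentration and 0.0905 with %intergenic, and r of -0.226 (Ndufa3), -0.0479 (Ndufab1), -0.0951 (Ndufc2), -0.131 (Cox6b1) and -0.0057 (Cox7a1). The cause of these turns was not tested.

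Leaving out 1 rat at a time, lineage ranged over -0.043 to 0.10 (Ndufa3), -0.011 to 0.095 (Ndufab1), -0.099 to 0.053 (Ndufc2), -0.034 to 0.15 (Uqcrc2) and -0.085 to 0.047 (Cox6b1), sex over -0.025 to 0.10 (Uqcrc2) and -0.14 to 0.0068 (Ndufc2), and the interaction over -0.19 to 0.17 (Ndufa3), -0.25 to 0.057 (Ndufab1), -0.34 to 0.094 (Ndufc2) and -0.087 to 0.22 (Cox6b1). All 15 pairs and all 6 slopes on %rRNA and on concentration passed in each of these 23 fits.

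Over all genes, 185 lineage calls became 294 with all 24 rats, 329 with DESeq2, 56 with sex as the only covariate, 2614 with sex and concentration, 18 in males, 8 in females and 97 to 436 without 1 rat (97 without bHR male replicate 1, 436 without bHR female replicate 6). The 49 sex calls became 21 with library size alone, 157 with DESeq2, 13 with lineage as the only covariate, 19 with family as replicate block and 18 to 159 without 1 rat (159 without bLR male replicate 3), moving by over 1.5 times in 13 of 23. The 10574 %rRNA calls became 6039 with concentration added. The 10255 concentration calls and the 6 subunits called became 0 with %rRNA and %intergenic added. With all 24 rats, 14 of the 24 relations with RNA metrics passed in place of 24. The replicate block was run for lineage and sex and changed neither call on the 6 subunits, and it was not run for the slopes, the interaction or the correlations. Concentration also stays bound to %rRNA, and Cox7a1 is limited by 48 to 153 counts.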

Other observations

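The bHR female left out for low RIN (RIN 6.3, %rRNA 3.52, %intergenic 14.0, RNA concentration 28.3) had levels of all 6 subunits within the range of the other 5 bHR females when scaled by library size alone. It had 518 CPM of Ndufc2 against 369 to 1003 CPM, 603 CPM of Uqcrc2 against 556 to 688 CPM and 5.37 CPM of Cox7a1 against 2.82 to 5.94 CPM. The bHR female nearest to it in %rRNA (3.63) had 972 CPM of Ndufc2. Ndufa3 stood at 167 CPM in the left-out rat, Ndufab1 at 361 CPM and Cox6b1 at 293 CPM.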
